A study of Mus musculus with 6 samples.

Results

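Chromatin-modifying and chromatin-remodelling genes were followed in F4/80+ cells of mouse bone marrow sorted into cells with and without eGFP from an Epor reporter. The members were chosen by gene symbol alone, as every symbol that begins with Kdm, Kmt, Setd, Hdac, Smarc, or Kat, Arid, Chd or Brd followed by a digit. This gave 88 of the 11489 genes in the table: 17 Kdm, 11 Setd, 11 Hdac, 11 Smarc, 10 Chd, 9 Arid, 7 Brd, 7 Kat and 5 Kmt genes. The rule itself uses no expression value beyond the table's own content, where the highest library value of any gene is 1 FPKM or more. The set was, however, chosen with earlier results of these data known. The symbol rule leaves out enzymes of the same kind with other names, such as Ezh2 or Ep300. It also takes in some genes that do not act on chromatin, such as Setd3, which methylates actin, and the antisense RNA Chd3os.

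Histone tails carry methyl and acetyl marks that are set by writers (the Kmt, Setd and Kat families), removed by erasers (the Kdm and Hdac families) and bound by readers such as the bromodomain (Brd) proteins. Remodellers of the SWI/SNF, ISWI and CHD type use ATP to move or evict nucleosomes, and several Arid and Smarc proteins are subunits of SWI/SNF complexes. In blood-forming and myeloid cells these enzymes act with lineage transcription factors at enhancers and promoters, and many of them work in large complexes with exchangeable, related subunits.

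RNA was sequenced from F4/80+Epor-eGFP+ cells (3 libraries) and F4/80+Epor-eGFP- cells (3 libraries) sorted by flow cytometry. F4/80 is a macrophage surface protein encoded by Adgre1, Epor encodes the erythropoietin receptor, and the labels call both groups erythroblastic island macrophages, the cells around which erythroblasts mature. The labels give no strain, age, treatment or further allele for either group and do not say how the Epor reporter was built. Separate animals are not stated either, so a p-value here reflects only how far libraries of a group scatter, and that scatter may be technical.

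Values are FPKM, fragments scaled to transcript length and to the fragments of the library. Library totals ran from 467176 to 519650 FPKM and library medians from 11.7 to 11.8 FPKM. Libraries are called by the number 0, 1 or 2 in their column names. Epor was between 3.43 and 7.78 FPKM in Epor-eGFP+ cells and between 0.217 and 0.414 FPKM in Epor-eGFP- cells, whereas Adgre1 did not differ by the test (167 ± 65.5 against 136 ± 3.85 FPKM, SD, n = 3 per group; adjusted p = 0.463). Markers of several cell types differed between the groups. All 12 genes of a resident macrophage list were higher in Epor-eGFP+ cells, with sums of 2033 to 7659 FPKM against 124 to 170, lowest in library 1 and highest in library 2. Of 17 erythroid genes, 10 were higher (sums of 634.6 to 2087 against 92.7 to 821 FPKM), as were 4 of 4 azurophil granule genes of promyelocytes (7532 to 9353 against 1428 to 2673). Lower in Epor-eGFP+ cells were 9 of 9 monocyte genes (1313 to 1627 against 3171 to 4442 FPKM), 10 of 11 genes of later neutrophil granules (13175 to 17131 against 24684 to 38974) and 6 of 10 eosinophil genes, of which 1 was higher. Of 4 tested T and NK cell genes, 3 were lower and Nkg7 was higher, and the list's sums, nearly all from Nkg7, were 202 to 257 against 54.1 to 95.8 FPKM. Of 6 megakaryocyte genes 2 were higher (87.7 to 173 against 32.5 to 90.9 FPKM), as were 2 of 9 B lineage genes (233 to 302 against 131 to 395). Of 18 proliferation genes 4 were higher, with overlapping sums of 1269 to 1696 and 1062 to 1460 FPKM. The B lineage and proliferation lists each had 22.2% of their genes higher, near the 22.7% of all tested genes. In these lists only Prg2, an eosinophil granule gene, was at 0 in any library. These shifts stand beside every result that follows, and their part in the results was not tested. In such bulk samples, fewer cells of a type and less RNA per cell cannot be told apart.

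Most members that differed were lower in Epor-eGFP+ cells. In a limma fit over the 10964 genes whose mean reached 1 FPKM, with differences taken on log2(FPKM + 1) as Epor-eGFP+ minus Epor-eGFP- and a Benjamini-Hochberg adjusted p under 0.05 as the call, 44 of 86 tested members fell (51.2%) and 7 rose (8.14%). Of all tested genes, 26.3% fell and 22.7% rose. The remaining 35 members did not pass. The median log2 difference was −0.24 over the members and −0.01 over all tested genes, and 63 members had a negative difference. The changes were small: only Kdm7a moved by more than 1 on the log2 scale, 15 members lay at or under −0.5 and 2 at or over 0.5. The values of the 2 groups did not overlap for 58 members (67.4%), against 60.4% of all tested genes. Hdac11 (1.15 ± 0.309 against 0.759 ± 0.211 FPKM) and Setd4 (1.11 ± 0.409 against 0.673 ± 0.0103) had means under the minimum and were not tested. These counts describe the set and carry no test of it.

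**Figure D1:**
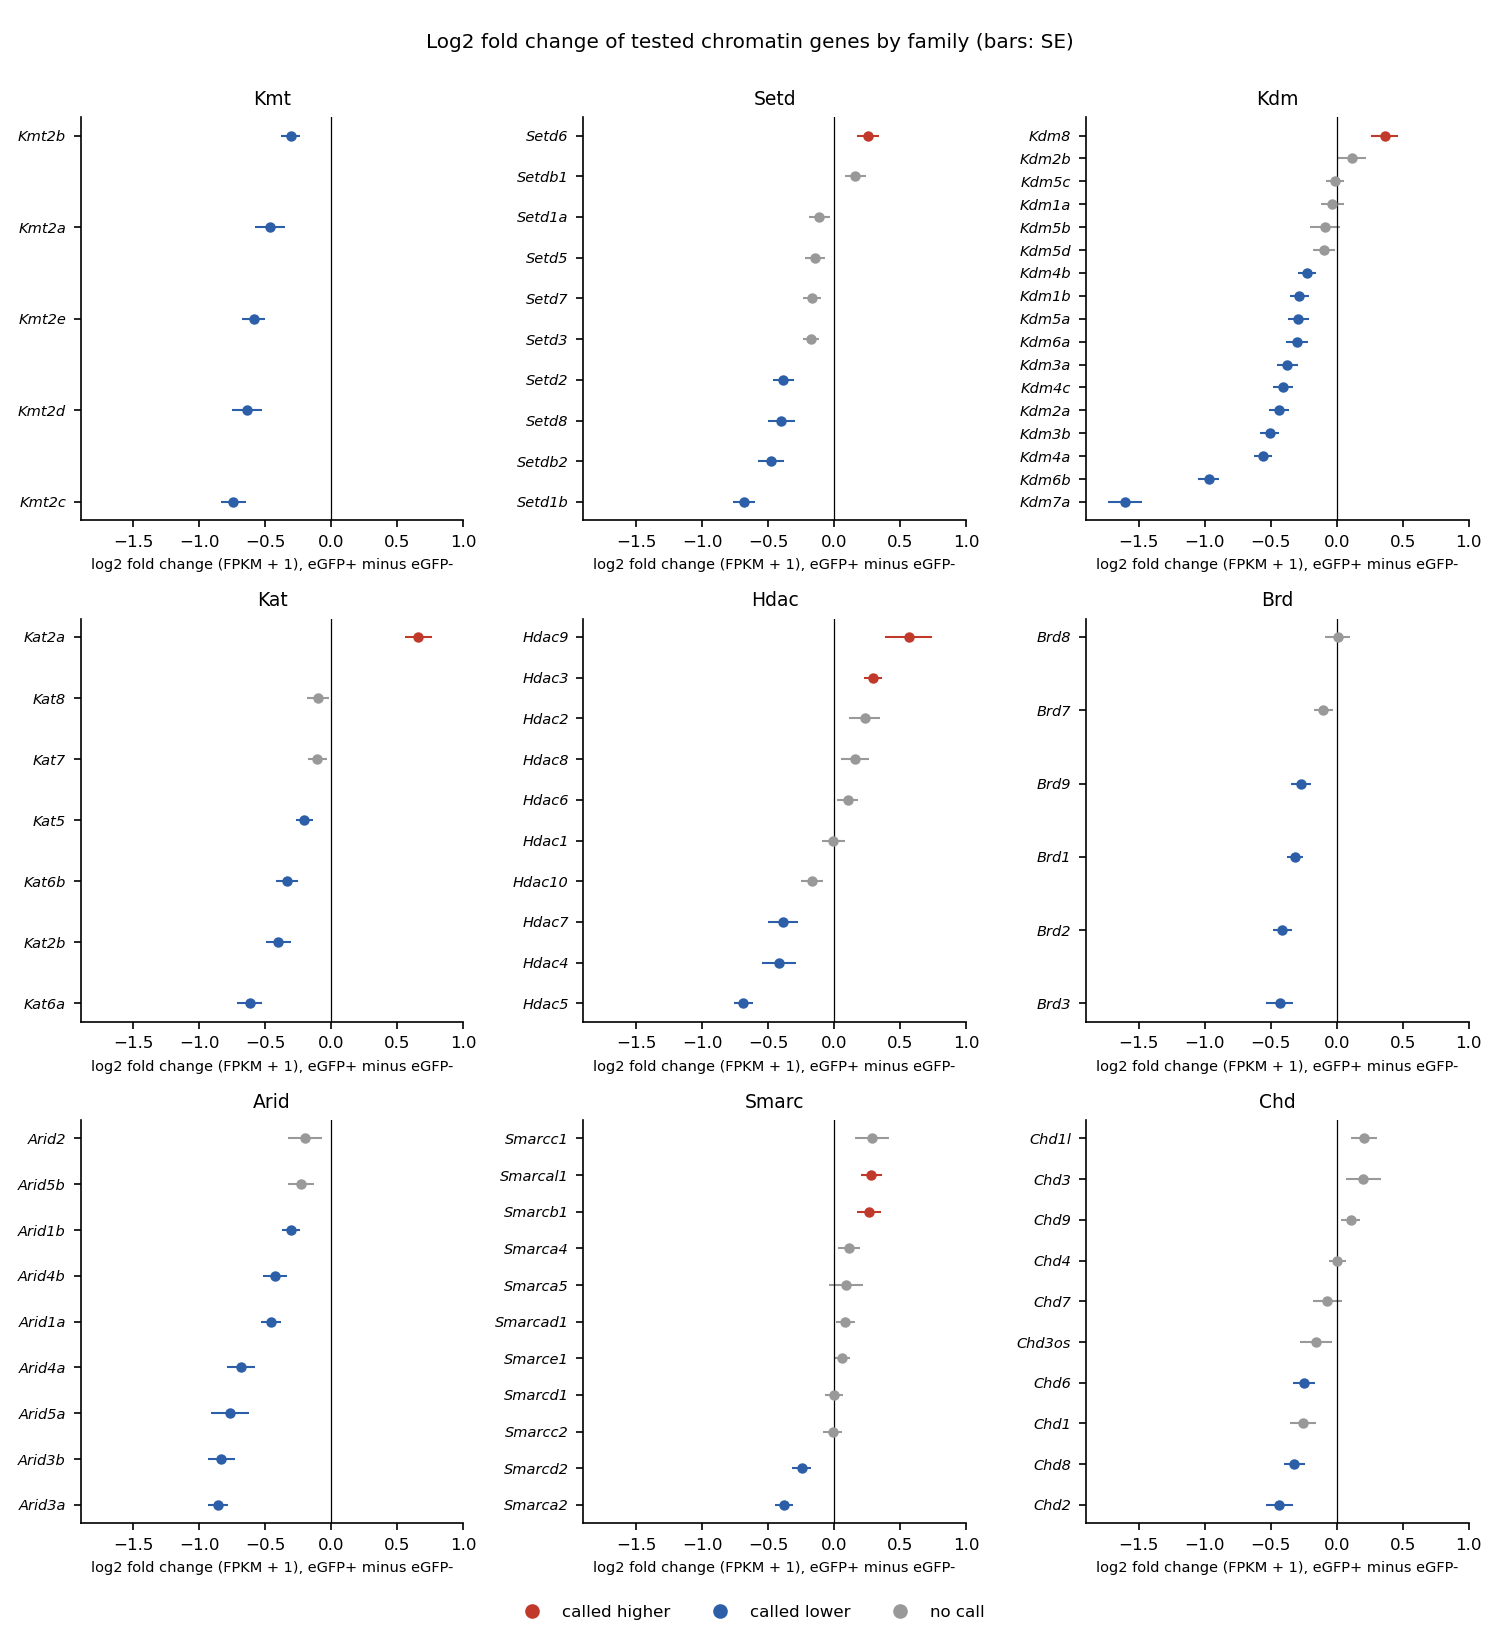
Log2 difference of FPKM + 1, Epor-eGFP+ minus Epor-eGFP-, for the tested members, 1 panel per symbol family, with bars for the SE and colours for members called higher, lower or not called at an adjusted p under 0.05. The Kmt, Arid, Brd and Kdm families lie mostly under 0 (medians −0.59, −0.46, −0.32 and −0.29), whereas Hdac and Smarc members lie on both sides of 0 (medians 0.05 and 0.08).

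Calls by family were these. All 5 Kmt genes fell, as did 7 of 9 Arid, 5 of 7 Brd, 11 of 17 Kdm, 4 of 7 Kat, 4 of 10 Setd, 3 of 10 Chd, 3 of 10 Hdac and 2 of 11 Smarc genes among those tested. The 7 rises were 2 Hdac, 2 Smarc, 1 Kat, 1 Kdm and 1 Setd gene. Over all tested genes, 26.3% fell and 22.7% rose. The share of falls was 30.0% in Chd and in Hdac genes, near that of all tested genes, and 18.2% in Smarc genes, under it. No family's share of rises reached 22.7%. Median log2 differences were −0.20 for Kat, −0.17 for Setd and −0.11 for Chd genes, and these, like those of the Kmt, Arid, Brd and Kdm genes, kept their sign under each rescaling of the libraries. The Smarc median of 0.08 also kept its sign, but the Hdac median of 0.05 turned to −0.005 with a minimum of 5 FPKM and to −0.00288 without Epor-eGFP+ library 1.

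Kdm7a, a demethylase of H3K9 and H3K27 (Chromosome 6, 39136623 to 39206789, minus strand, GRCm38), had the largest difference of all members. Epor-eGFP- libraries 0, 1 and 2 held 34.2, 30.6 and 38.9 FPKM, and Epor-eGFP+ libraries 10.1, 12.7 and 9.41 FPKM, in the same order. The highest Epor-eGFP+ library was thus well under the lowest Epor-eGFP- library. Kdm7a fell by 1.60 on the log2 scale (SE 0.13, adjusted p = 0.000431), and its mean FPKM fell by 68.9%. The largest rise was that of Kat2a (GCN5), the acetyltransferase of the SAGA and ATAC coactivator complexes (chromosome 11, 100704746 to 100712465, minus strand). Kat2a stood at 13.7, 16.8 and 14.1 FPKM in Epor-eGFP- and at 24.0, 25.9 and 22.2 in Epor-eGFP+ cells, again with no overlap. Its log2 difference was 0.66 (SE 0.10, adjusted p = 0.00252). The 250 bases before the RefSeq start of each gene (GRCm38.p6, 5′ to 3′ on the gene's strand) are shown because these members mark the ends of the range, with every CG dinucleotide in capitals.
Kdm7a, chr6:39206774-39207023, minus strand: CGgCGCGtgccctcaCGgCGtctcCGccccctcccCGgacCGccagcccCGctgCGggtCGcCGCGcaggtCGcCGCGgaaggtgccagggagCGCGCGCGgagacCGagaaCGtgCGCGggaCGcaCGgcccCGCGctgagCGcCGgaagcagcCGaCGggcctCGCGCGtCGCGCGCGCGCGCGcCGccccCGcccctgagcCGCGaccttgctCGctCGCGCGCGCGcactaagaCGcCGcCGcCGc
Kat2a, chr11:100712468-100712717, minus strand: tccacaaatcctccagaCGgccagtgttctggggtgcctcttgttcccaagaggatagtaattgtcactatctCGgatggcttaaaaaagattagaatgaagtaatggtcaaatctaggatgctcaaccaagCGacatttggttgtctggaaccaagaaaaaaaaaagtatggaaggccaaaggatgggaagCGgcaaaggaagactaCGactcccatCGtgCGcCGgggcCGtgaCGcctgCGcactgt
The Kdm7a sequence is made almost wholly of G and C (82.0%) and holds 56 CG dinucleotides, a number that no other of the 27025 promoters in the RefSeq table reaches. The Kat2a sequence has 48.8% G and C and 11 CG dinucleotides, gathered near the gene's start, and 9730 of the promoters hold at least as many. The medians of all promoters were 6 CG dinucleotides and 52.0% G and C. No data on methylation or binding at these promoters were analysed here, so the sequences describe the genes and not their difference.

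**Figure D2:**
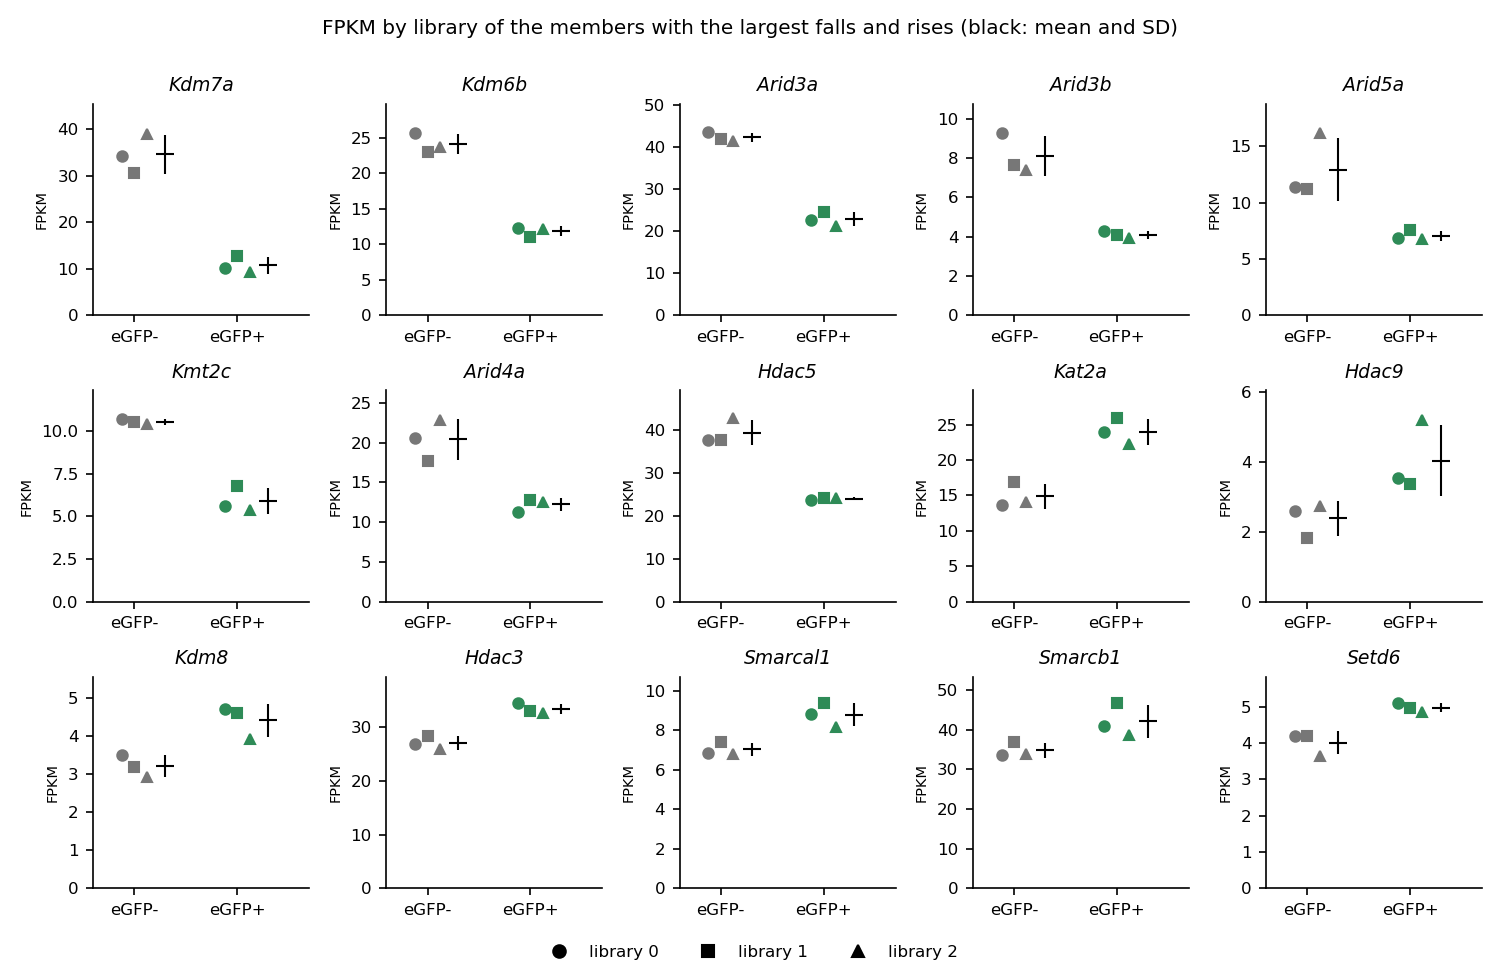
FPKM in each library (symbols for library 0, 1 and 2) of the 8 members with the largest falls and the 7 that rose, with the mean and SD of each group in black. In every panel the groups do not overlap, and Kdm7a shows the widest gap, from 12.7 FPKM in the highest Epor-eGFP+ library to 30.6 in the lowest Epor-eGFP- library.

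Among the writers of H3K4 methylation, 5 of 7 fell and none rose. Kmt2c and Kmt2d (MLL3 and MLL4), which methylate H3K4 at enhancers, both fell. Kmt2c stood at 10.7, 10.5 and 10.4 FPKM in Epor-eGFP- and at 5.63, 6.79 and 5.36 FPKM in Epor-eGFP+ libraries (log2 difference −0.74, SE 0.10, adjusted p = 0.00135). Kmt2d stood at 16.5 ± 0.610 FPKM in Epor-eGFP- and 10.3 ± 1.65 in Epor-eGFP+ cells (log2 difference −0.64, adjusted p = 0.00423). Both were lower in every Epor-eGFP+ library than in any Epor-eGFP- library. Kmt2a (MLL1), which maintains Hox gene expression in blood stem and progenitor cells, and its relative Kmt2b differed less, by −0.47 (adjusted p = 0.0147) and −0.31 (adjusted p = 0.0129). Without Epor-eGFP- library 0 these adjusted p were 0.0576 and 0.0564, and without Epor-eGFP+ library 0 that of Kmt2a was 0.0517. Kmt2e, a family member with no clear methyltransferase activity, had the highest level of the Kmt genes, at 27.1 ± 2.21 FPKM in Epor-eGFP- and 17.6 ± 1.10 in Epor-eGFP+ cells (log2 difference −0.59, adjusted p = 0.00213).

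Of the SET1-type enzymes, Setd1b fell and Setd1a did not pass. Setd1b stood at 18.3, 18.2 and 20.3 FPKM in Epor-eGFP- and at 10.8, 12.4 and 11.0 in Epor-eGFP+ libraries (log2 difference −0.68, SE 0.084, adjusted p = 0.00124). Setd1a, which forms the same kind of complex, was at 17.3 ± 0.414 and 16.0 ± 1.41 FPKM, with overlapping groups and an adjusted p of 0.290. The log2 ratio of Setd1a to Setd1b was −0.12 ± 0.114 in Epor-eGFP- and 0.45 ± 0.0674 in Epor-eGFP+ libraries, with no overlap. Setd7, a monomethylase of H3K4 and of other proteins, did not pass (−0.17, adjusted p = 0.0874).

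Writers of other methyl marks fell, rose or did not pass. Setd8, the H4K20 monomethylase that cells need for genome replication and compaction, had the highest level of the Setd genes and stood at 71.5, 74.0 and 75.7 FPKM in Epor-eGFP- and at 54.9, 63.9 and 49.1 in Epor-eGFP+ libraries (log2 difference −0.40, adjusted p = 0.0172). This call was lost without Epor-eGFP+ library 0 (adjusted p = 0.0623) and without Epor-eGFP- library 2 (adjusted p = 0.0503). Setd2, the H3K36 trimethylase that travels with RNA polymerase II, fell by 0.38 (18.4 ± 1.48 against 24.3 ± 0.964 FPKM, adjusted p = 0.00768). Of the H3K9 methyltransferases, Setdb2 fell by 0.48 (5.19 ± 0.651 against 7.58 ± 0.155 FPKM, adjusted p = 0.00729). Setdb1, which silences retroelements together with TRIM28, was at 14.3 ± 0.840 against 12.7 ± 0.750 FPKM and did not pass (adjusted p = 0.128). Setd6, which methylates non-histone proteins, was the only Setd gene that rose (4.97 ± 0.126 against 4.01 ± 0.309 FPKM, log2 difference 0.25, adjusted p = 0.0414). It lost its call whichever library was left out (adjusted p of 0.0592 to 0.132). Setd3 and Setd5 did not pass (adjusted p = 0.0530 and 0.146), although a fit with a replicate block on the library number called Setd3 (adjusted p = 0.0322), as did a minimum of 5 FPKM (adjusted p = 0.0483).

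Among the acetyltransferases, the GNAT enzymes went in opposite directions. Kat2b (PCAF), which can replace Kat2a in the same complexes, stood at 13.8, 12.9 and 15.8 FPKM in Epor-eGFP- and at 9.99, 9.97 and 11.4 in Epor-eGFP+ libraries (log2 difference −0.40, adjusted p = 0.0142; 0.0579 without Epor-eGFP+ library 0). The summed level of Kat2a and Kat2b was 27.5 to 29.9 FPKM in Epor-eGFP- and 33.6 to 35.8 in Epor-eGFP+ libraries. Of the 5 MYST enzymes 3 fell and none rose. Kat6a (MOZ), an H3 acetyltransferase needed for blood stem cells, stood at 22.6, 22.3 and 26.3 FPKM in Epor-eGFP- and at 14.0, 16.2 and 15.0 in Epor-eGFP+ libraries (log2 difference −0.62, SE 0.092, adjusted p = 0.00228). Its relative Kat6b, at 3.97 ± 0.0758 against 2.94 ± 0.201 FPKM, fell by 0.34 (adjusted p = 0.0152; 0.0646 without Epor-eGFP+ library 0 and 0.0584 without Epor-eGFP- library 0). Kat5 (TIP60), which acetylates H4 and H2A, had a small difference of −0.20 (adjusted p = 0.0356) that lost its call whichever library was left out (adjusted p of 0.0516 to 0.106). Kat7 and Kat8, the catalytic subunits of the HBO1 and MOF complexes, did not pass (log2 differences −0.11 and −0.10).

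Among the erasers of methyl marks, all 6 tested demethylases assigned here to H3K9 (Kdm3a, Kdm3b, Kdm4a, Kdm4b, Kdm4c and Kdm7a) fell. So did all 3 assigned to H3K27 (Kdm6a, Kdm6b and Kdm7a). Kdm1a, which did not pass, was assigned here to H3K4 only. Of the 6 H3K4 demethylases, 2 fell (33.3%, against 26.3% of all tested genes). Kdm6b (JMJD3), the H3K27 demethylase that inflammatory stimuli induce in macrophages, lies on chromosome 11 (69398508 to 69413675, minus strand). It stood at 25.7, 22.9 and 23.7 FPKM in Epor-eGFP- and at 12.3, 11.0 and 12.1 FPKM in Epor-eGFP+ libraries. The groups were far apart and each was tight (log2 difference −0.97, SE 0.078, adjusted p = 0.000412). Kdm6a (UTX), an X-linked enzyme for the same mark, had less FPKM than Kdm6b in both groups and fell by 0.30 (6.22 ± 0.539 against 7.86 ± 0.0839 FPKM, adjusted p = 0.0228). That call was lost without library 0 or 2 of either group, with adjusted p of 0.0504 to 0.0755.

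Kdm3b, which removes H3K9 mono- and dimethylation, had the highest level of the Kdm genes. It stood at 37.9, 36.2 and 36.6 FPKM in Epor-eGFP- and at 25.3, 27.7 and 24.2 in Epor-eGFP+ libraries (log2 difference −0.51, adjusted p = 0.00206). Its relative Kdm3a, a hypoxia-induced gene, fell by 0.38 (11.2 ± 0.450 against 14.9 ± 1.12 FPKM, adjusted p = 0.00838). Of the Kdm4 enzymes, which act on H3K9 and H3K36, Kdm4a fell by 0.56 (20.9 ± 1.26 against 31.2 ± 0.520 FPKM, adjusted p = 0.00129) and Kdm4c by 0.41 (adjusted p = 0.00547). Kdm4b differed by −0.22 (adjusted p = 0.0346) and lost its call in 5 of the 6 fits that left out a library, those other than without Epor-eGFP+ library 2 (adjusted p of 0.0586 to 0.125). For H3K36 alone, Kdm2a fell by 0.43 (adjusted p = 0.00408), Kdm2b did not pass (adjusted p = 0.386) and Kdm8, which also acts as a protein hydroxylase, rose by 0.36 (4.42 ± 0.428 against 3.21 ± 0.292 FPKM, adjusted p = 0.0231). When a library was left out, the call of Kdm8 was kept only without Epor-eGFP+ library 2 or Epor-eGFP- library 0 (otherwise adjusted p of 0.0541 to 0.0905). Kdm8 also lost its call with quantile normalization (adjusted p = 0.0712).

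Of the 6 H3K4 demethylases, 4 did not pass. Kdm1a (LSD1), which works with GFI1 and CoREST in myeloid and erythroid cells, stood at 21.5, 19.8 and 19.2 FPKM in Epor-eGFP- and at 21.3, 20.2 and 17.8 in Epor-eGFP+ libraries, and did not pass (log2 difference −0.03, SE 0.089). Kdm5b, Kdm5c and Kdm5d did not pass either, with log2 differences of −0.09, −0.01 and −0.09. Kdm1b (LSD2) and Kdm5a fell by 0.28 and 0.29 (adjusted p = 0.0183 and 0.0216). Each lost its call without library 0 of either group or without Epor-eGFP- library 2 (adjusted p of 0.0510 to 0.0848), and Kdm5a also without Epor-eGFP+ library 2 (adjusted p = 0.0506).

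Among the histone deacetylases, none of the 4 class I enzymes fell. Hdac1, the most abundant deacetylase gene, stood at 74.6, 70.5 and 68.7 FPKM in Epor-eGFP- and at 70.8, 78.4 and 64.4 in Epor-eGFP+ libraries, with a log2 difference of −0.00 (SE 0.088). Hdac3, the catalytic subunit of the NCoR and SMRT corepressor complexes, stood at 26.9, 28.4 and 25.8 FPKM in Epor-eGFP- and at 34.5, 32.9 and 32.6 in Epor-eGFP+ libraries (log2 difference 0.29, adjusted p = 0.0114; 0.0575 without Epor-eGFP+ library 0). Hdac2, which shares its complexes with Hdac1, was at 41.7 ± 4.77 against 35.4 ± 4.34 FPKM with overlapping groups. It did not pass (log2 difference 0.23, adjusted p = 0.148) but did with the replicate block (adjusted p = 0.0142). Hdac8 did not pass (log2 difference 0.16, adjusted p = 0.258).

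All 4 class IIa deacetylases, which bind MEF2 factors and shuttle between nucleus and cytoplasm, passed the test, 3 as falls. Hdac5 stood at 37.5, 37.7 and 42.7 FPKM in Epor-eGFP- and at 23.7, 24.1 and 24.2 in Epor-eGFP+ libraries (log2 difference −0.69, SE 0.074, adjusted p = 0.000842). The 3 Epor-eGFP+ values were close to each other and far under the Epor-eGFP- values. Hdac7 and Hdac4 fell by 0.39 and 0.42 (adjusted p = 0.0269 and 0.0326). Hdac7 lost its call without Epor-eGFP+ library 2 (adjusted p = 0.0582) or Epor-eGFP- library 0 (adjusted p = 0.0880), and Hdac4 without any library but Epor-eGFP+ library 1 (adjusted p of 0.0659 to 0.106). Hdac9 went the other way, at 2.59, 1.82 and 2.74 FPKM in Epor-eGFP- and 3.52, 3.37 and 5.19 in Epor-eGFP+ libraries (log2 difference 0.56, adjusted p = 0.0333). When a library was left out, the call was kept only without Epor-eGFP+ library 1 or Epor-eGFP- library 2 (otherwise adjusted p of 0.0600 to 0.0875). Hdac9 also lost its call with quantile normalization (adjusted p = 0.0754). Its highest value was in library 2, where the resident macrophage genes were also highest, a link that was not tested. The class IIb genes Hdac6 and Hdac10 did not pass (log2 differences 0.10 and −0.17).

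Among the readers, 5 of 7 Brd genes fell and none rose. Brd2, which binds acetylated histones at active genes, is the most abundant member of the Brd family and stood at 93.7, 94.9 and 98.9 FPKM in Epor-eGFP- and at 73.4, 74.9 and 67.3 in Epor-eGFP+ libraries (log2 difference −0.41, SE 0.071, adjusted p = 0.00391). Brd3, which binds acetylated GATA1 in erythroid cells, fell by 0.43 (20.5 ± 1.73 against 28.0 ± 3.03 FPKM, adjusted p = 0.0127). In Brd2 and Brd3 every Epor-eGFP+ library was under every Epor-eGFP- library. Brd1, a scaffold of MYST acetyltransferase complexes, fell by 0.32 (adjusted p = 0.00611; 0.0561 with libraries rescaled to the mean total FPKM). Brd8, a subunit of the TIP60 complex, did not pass (log2 difference 0.01, adjusted p = 0.955).

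For the SWI/SNF remodellers, 13 members encode subunits, of which 5 fell, 1 rose and 7 did not pass. The falls were 38.5%, against 26.3% of all tested genes, with a median log2 difference of −0.0998. With libraries rescaled to the mean total FPKM, 2 of the 13 fell, against 19.0% of all tested genes, and the median was −0.000973. Quantile normalization left 3 falls, against 26.6% of all tested genes. Of the alternative ATPases, Smarca2 (BRM) stood at 22.3, 23.3 and 22.0 FPKM in Epor-eGFP- and at 16.4, 17.4 and 17.5 in Epor-eGFP+ libraries (log2 difference −0.38, SE 0.066, adjusted p = 0.00403). Smarca4 (BRG1) was at 45.6 ± 3.76 against 42.0 ± 1.66 FPKM in Epor-eGFP+ and Epor-eGFP- cells, with overlapping groups and no call (adjusted p = 0.277). The log2 ratio of Smarca2 to Smarca4 was −0.87 ± 0.0157 in Epor-eGFP- and −1.36 ± 0.112 in Epor-eGFP+ libraries, without overlap. Smarca5, the ATPase of the ISWI complexes, did not pass (45.5 ± 7.15 against 42.4 ± 4.12 FPKM).

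Among the subunits that define the SWI/SNF subtypes, Arid1a, Arid1b and Brd9 fell. Arid1a, the subunit of the canonical BAF complex that is often mutated in tumours, stood at 47.1, 45.7 and 45.9 FPKM in Epor-eGFP- and at 32.9, 36.2 and 31.2 in Epor-eGFP+ libraries (log2 difference −0.46, adjusted p = 0.00310), and its alternative Arid1b fell by 0.31 (adjusted p = 0.0102; 0.0748 with libraries rescaled to the mean total FPKM). Arid2 and Brd7, subunits of the PBAF complex, did not pass (log2 differences −0.20 and −0.10), although the replicate block called Arid2 (adjusted p = 0.0490). Brd9, of the non-canonical BAF complex, fell by 0.27 (19.3, 20.8 and 18.1 against 24.0, 23.7 and 23.0 FPKM, adjusted p = 0.0222) but passed, when a library was left out, only without Epor-eGFP+ library 1 or Epor-eGFP- library 2 (otherwise adjusted p of 0.0517 to 0.0791). Smarcd2, needed for neutrophil granule formation, was the most abundant member of the SWI/SNF group with values of 84.7, 82.7 and 86.1 FPKM in Epor-eGFP- and 72.3, 75.3 and 65.9 in Epor-eGFP+ libraries. It fell by 0.25 (adjusted p = 0.0293) and passed, when a library was left out, only without Epor-eGFP+ library 1 (otherwise adjusted p of 0.0546 to 0.0882). The later neutrophil granule genes fell with it, and the part of such cells in its difference was not tested.

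Of the other subunits, Smarcc2, Smarce1 and Smarcd1 did not pass, with log2 differences of −0.01, 0.06 and 0.00. Smarcc1 (BAF155), the scaffold of the core, was at 26.7 ± 3.52 against 21.7 ± 3.11 FPKM and did not pass (log2 difference 0.29, adjusted p = 0.110). It passed with the replicate block (adjusted p = 0.0124) and without Epor-eGFP+ library 2 or Epor-eGFP- library 1 (0.0447 and 0.0452). Smarcb1 (SNF5), a core subunit lost in rhabdoid tumours, stood at 33.6, 37.0 and 34.0 FPKM in Epor-eGFP- and at 41.0, 46.7 and 38.6 in Epor-eGFP+ libraries (log2 difference 0.26, adjusted p = 0.0460). When a library was left out, this call was kept only without Epor-eGFP+ library 2 (otherwise adjusted p of 0.0514 to 0.139). Smarcb1 also lost its call in a fit without the mean-variance trend (adjusted p = 0.0558). Outside SWI/SNF, the annealing helicase Smarcal1 rose by 0.28 (8.79 ± 0.589 against 7.04 ± 0.346 FPKM, adjusted p = 0.0248) and Smarcad1 did not pass. When a library was left out, Smarcal1 kept its call only without Epor-eGFP+ library 2 or Epor-eGFP- library 1 (otherwise adjusted p of 0.0681 to 0.0859).

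Of the ARID proteins outside SWI/SNF, 5 of 6 fell. Arid3a (Bright), a transcription factor of B cell and blood development, stood at 43.6, 42.0 and 41.5 FPKM in Epor-eGFP- and at 22.8, 24.7 and 21.3 in Epor-eGFP+ libraries (log2 difference −0.86, SE 0.075, adjusted p = 0.000502). Its relative Arid3b stood at 9.28, 7.63 and 7.40 FPKM in Epor-eGFP- and at 4.29, 4.06 and 3.92 in Epor-eGFP+ libraries (log2 difference −0.83, adjusted p = 0.00118). The ratio of the Epor-eGFP+ mean to the Epor-eGFP- mean was 0.541 for Arid3a and 0.505 for Arid3b. Arid5a, an RNA-binding protein that stabilises inflammatory mRNAs such as that of IL-6, stood at 11.4, 11.2 and 16.2 FPKM in Epor-eGFP- and at 6.89, 7.57 and 6.76 in Epor-eGFP+ libraries (log2 difference −0.77, adjusted p = 0.00498). Arid4a and Arid4b, which bind the retinoblastoma protein and the SIN3 deacetylase complex, fell by 0.69 and 0.43 (adjusted p = 0.00261 and 0.00833). Arid5b, a DNA-binding partner of the demethylase Phf2, did not pass (log2 difference −0.23, adjusted p = 0.0939), but was called with quantile normalization (adjusted p = 0.0382).

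Of the 10 CHD genes, with the antisense RNA Chd3os among them, 3 fell (30.0%, against 26.3% of all tested genes) and none rose. Chd4, the ATPase of the NuRD complex and the most abundant CHD gene, stood at 83.8, 82.3 and 77.4 FPKM in Epor-eGFP- and at 81.4, 83.8 and 79.1 in Epor-eGFP+ libraries, with overlapping groups and a log2 difference of 0.01 (SE 0.066). Chd3, its alternative, was at 15.0 ± 2.35 against 12.9 ± 1.51 FPKM and did not pass. Its antisense RNA Chd3os was near 1.51 and 1.80 FPKM, and because the sources used here do not say that counting used strand, reads of Chd3 and Chd3os cannot be told apart. Chd2, which opens chromatin at active genes, fell by 0.43 (8.33 ± 0.539 against 11.6 ± 1.51 FPKM, adjusted p = 0.0136), and its relative Chd1 did not pass (log2 difference −0.25, adjusted p = 0.0667; 0.0310 with the replicate block and 0.0358 without Epor-eGFP+ library 1). Chd8, a regulator of WNT target genes, fell by 0.32 (adjusted p = 0.0146; 0.0594 without Epor-eGFP- library 0). Chd6 had a difference of −0.25 (adjusted p = 0.0456) and passed, when a library was left out, only without Epor-eGFP- library 1 (otherwise adjusted p of 0.0813 to 0.148). Chd7 and Chd9 did not pass. Chd1l (ALC1), a remodeller activated by poly(ADP-ribose), was at 13.3 ± 1.16 against 11.4 ± 1.15 FPKM and passed only with the replicate block (adjusted p = 0.0386).

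Of the 7 rises, only that of Kat2a passed in each of the 6 fits that left out a library. Without Epor-eGFP+ library 0 it was the only member called higher, with adjusted p of 0.0575 to 0.132 for the other 6. Among the falls, 26 of 44 were kept in all 16 alternative settings, Kdm7a, Kdm6b, Arid3a, Kmt2c, Hdac5, Brd2 and Arid1a among them. With libraries rescaled to the mean total FPKM, 16 falls lost their call (adjusted p of 0.0506 to 0.311), namely Arid1b, Brd1, Brd9, Chd6, Chd8, Hdac4, Hdac7, Kat5, Kdm1b, Kdm4b, Kdm5a, Kdm6a, Kmt2a, Kmt2b, Setd8 and Smarcd2.

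Pairs of related genes were compared as log2 ratios of FPKM + 1 within each library. Of 19 such pairs, 12 had ratios that did not overlap between the groups and 7 had ratios that did. Of all tested genes 60.4% did not overlap in level, but no such share was computed for ratios of other gene pairs. With 3 against 3 libraries the exact two-sided permutation test cannot go under 0.1, which adjusts to 0.158 over the 19 pairs, so no pair could pass. The widest shift was in Kat2a over Kat2b, from −0.01, 0.36 and −0.15 without eGFP to 1.19, 1.29 and 0.90 with it. Kdm6a over Kdm6b came next, from −1.50 ± 0.0701 to −0.83 ± 0.161, followed by Setdb1 over Setdb2, from 0.67 ± 0.0901 to 1.31 ± 0.0794. Smaller shifts without overlap were seen for Kdm4a over Kdm4b (−0.33), Kat6a over Kat6b (−0.28), Kdm5a over Kdm5c (−0.28), Kdm1a over Kdm1b (0.25), Smarcd1 over Smarcd2 (0.25), Hdac1 over Hdac2 (−0.24) and Arid1a over Arid1b (−0.15). The pairs Smarcc1 and Smarcc2, Hdac4 and Hdac5, Kmt2a and Kmt2b, Kmt2c and Kmt2d, Chd3 and Chd4, and Chd1 and Chd2 were among those with overlapping ratios.

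**Figure D3:**
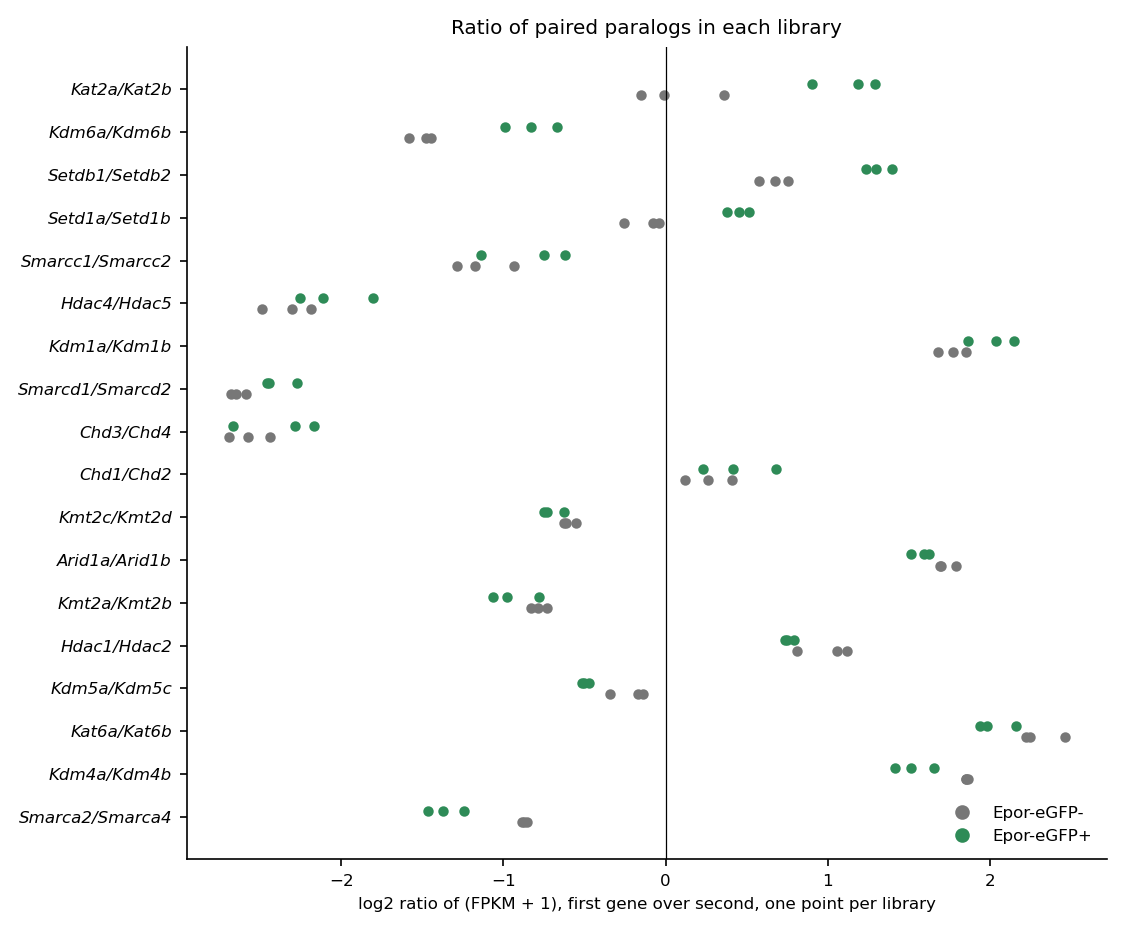
Log2 ratio of FPKM + 1 of the first gene over the second for 18 of the 19 pairs of related members, with a point for each library and colours for the groups. The points of the groups are apart in 12 pairs, most widely for Kat2a over Kat2b, with means of 1.13 in Epor-eGFP+ and 0.07 in Epor-eGFP- libraries.

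The members' order across libraries was also compared. Against the Epor-eGFP- mean, the median member lay at −0.23, −0.18 and −0.26 on the log2 scale in Epor-eGFP+ libraries 0, 1 and 2, and 63, 58 and 67 of 86 members were under that mean. For all tested genes these medians were −0.01, −0.01 and −0.03. Among the Epor-eGFP+ libraries, library 1 held the highest value for 59 members (68.6%, against 42.3% of all tested genes) and library 2 the lowest for 58 (67.4%, against 46.1%). Library 1 also had the lowest and library 2 the highest sum of resident macrophage genes, and the part of this in the members' order was not tested. With both libraries numbered 2 left out, 33 members were lower and 5 higher. The shares over all tested genes were then 22.8% and 20.2%.

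The members have long transcripts, and among all genes, too, long transcripts were called lower in Epor-eGFP+ cells more often than short ones. The longest annotated transcript (GENCODE vM21) had a median of 5390 bases over the tested members and 3037 bases over all tested genes. The members that fell had a median of 5928 bases, those that rose 2389 and those without a call 5168. Spearman's correlation of length with the log2 difference was −0.39 over the 86 members and −0.15 over 10914 genes, given as a description, since genes of the same libraries are not independent. In the longest of 5 equal classes of all genes (4989 bases and more), which holds 48 members, 34.3% of all genes and 60.4% of members were lower. In the next class 10 of 16 members were lower (62.5%, against 29.5% of all genes). In the 3 classes of shorter transcripts, which hold only 3, 8 and 11 members, 0, 2 and 3 members were lower, against 18.5%, 22.6% and 26.5% of all genes. The part of length in the members' differences was not tested.

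**Figure D4:**
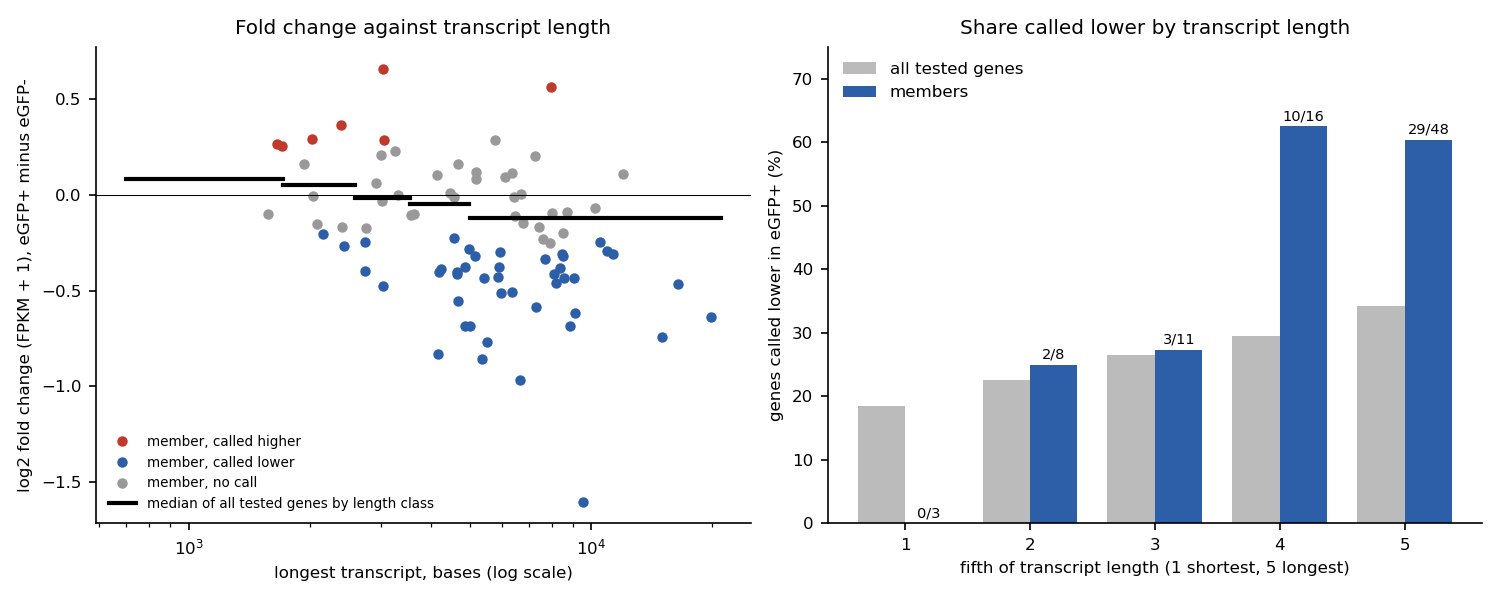
Left, log2 difference of each tested member against the length in bases of its longest annotated transcript (log axis), coloured by call, with black lines for the median of all tested genes in each of 5 length classes. Right, the share called lower in each of 5 length classes for all tested genes and for the members, with members called lower over members tested above the bars, at 34.3% and 60.4% in the longest class.

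Other chromatin genes outside the symbol rule, in 13 lists with 163 tested genes, gave 50 falls (30.7%) and 27 rises (16.6%), with a median log2 difference of −0.05. The shares over all tested genes were 26.3% for falls and 22.7% for rises. Acetyltransferases of other families had 6 of 9 lower and none higher, among them the coactivators Ep300 (20.1 ± 1.46 against 35.6 ± 3.16 FPKM, log2 difference −0.80, adjusted p = 0.000957) and Ncoa1 (−0.80). Arginine methyltransferases had 4 of 7 higher and none lower, led by Prmt7 (15.7 ± 1.76 against 7.55 ± 1.46 FPKM, log2 difference 0.98, adjusted p = 0.00196) and Prmt5 (0.86), which form symmetric dimethylarginine or monomethylarginine. Subunits of the deacetylase corepressors had 9 of 21 lower and 2 higher, with Sap30 at −0.86 and Gatad2b at −0.63. Among other lysine methyltransferases, 5 of 15 fell and 4 rose, the largest rises being those of Smyd2 (1.08) and Smyd5 (0.95).

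The Polycomb lists were mixed, with 3 lower and 2 higher of 11 PRC2 genes (Phf1 at −1.04, Rbbp7 at 0.60; 4 higher with the replicate block, which added Ezh2 and Mtf2) and 6 lower and 4 higher of 19 PRC1 genes (Cbx8 at −0.86, Pcgf6 at 0.72). COMPASS subunits, the partners of the Kmt2 and Setd1 enzymes, had 2 lower and 1 higher of 11 (Ncoa6 at −0.37, Dpy30 at 0.36). Of 13 further SWI/SNF subunits 4 were lower and 2 higher, with Gltscr1 at −0.84 and Actb, which is also the cytoskeletal actin gene, at −0.75. INO80 and SWR remodeller genes had 4 lower and 2 higher of 16, and the 2 rises were the AAA ATPases Ruvbl1 (0.74) and Ruvbl2 (0.65). ISWI partners had 4 lower and 1 higher of 11 (Pole3 at 0.67, Baz2a at −0.53), and DNA methylation genes 3 lower and 1 higher of 10, with the 5-methylcytosine oxidases Tet2 and Tet3 at −0.67 and −0.54. Sirtuins had 2 of 7 lower and none higher (Sirt7 at −0.67, Sirt1 at −0.39). Histone chaperones had 4 higher and 2 lower of 13, with Npm1, also a ribosome assembly factor, at 0.67 and Daxx at −0.52. Over all the lists outside the symbol rule the replicate block called 36 higher and 56 lower, and over all tested genes 28.0% higher and 30.4% lower. It raised the rises of COMPASS, ISWI partner and DNA methylation genes from 1 to 2 each, gave 1 rise in place of none among the other acetyltransferases, and called 6 further SWI/SNF genes lower and 6 histone chaperones higher and 3 lower. The block also called 8 PRC1 genes and 5 INO80 and SWR genes lower, and 5 other lysine methyltransferases higher. With libraries rescaled to the mean total FPKM, 30 were higher and 32 lower, and no COMPASS or INO80 and SWR gene was then lower. The shares over all tested genes were then 27.9% higher and 19.0% lower.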

How the data were processed

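RNA sequencing of 6 sorted mouse bone marrow libraries, 3 per group, was analysed from a single deposited table of FPKM values that the authors made from their reads. The tools were Cufflinks 2.2.1, TopHat2 2.1.0, Trimmomatic 0.35 and bcl2fastq 2.19.1.403 with the build mm10, per the submitters' processing notes, which give no role for each. The annotation, the strand setting and the scaling between libraries were not described in the labels. FPKM values hold no counts, so depth is unknown. Cufflinks estimates how similar genes share reads, so values of close relatives can be uncertain singly. Columns carry a group and a number from 0 to 2 and the labels numbers from 1 to 3, so columns were assigned to groups only.

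The 10964 of 11489 genes whose mean reached 1 FPKM were fitted with limma 3.58.1 (R 4.3.3) on log2(FPKM + 1), with no term but the group, a mean-variance trend, two-sided tests and Benjamini-Hochberg adjustment over all of them at 0.05. Fold changes on this scale understate the change of low genes. Pairs were compared with exact two-sided permutation tests, adjusted over 19 pairs. The fit was also run on simulated data with independent libraries and few changed genes. These data are unlike that, so the simulation does not show how the fit performs here. Same-numbered libraries of the groups deviated together over genes (correlations of 0.252, 0.377 and 0.348, against −0.387 to 0.0654 for other pairs), so a fit with the number as a replicate block was run beside it. Deviations were taken from each group's own mean, so positive values for same-numbered pairs push those of other pairs down. The other pairs are therefore not an independent comparison. No label says what the numbers mark.

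Members and lists were chosen with earlier results of these data known. A member and its pair are counted but not reported here or drawn by name. Other members are named by rule: the 8 called members with the largest falls, all that rose, the leading and most abundant member of each family, paralogs, uncalled members, and up to 2 called genes per other list. Further members were named after their values were seen. Promoters came from the RefSeq table (GRCm38.p6), which held 64 of the 88 members, too few to describe the set. Lengths and coordinates came from GENCODE vM21 (GRCm38). Alternatives changed the pseudocount, filter, scaling, trend and block and left out each library. The fit without both libraries numbered 2 was chosen after seeing the data.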

Additional observations from a re-analysis of the deposited data

How the results depend on the processing

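FPKM values without counts, 3 libraries a group and pairs that cannot pass a permutation test limit what these data resolve. Members called lower numbered 30 to 42 and higher 1 to 6 when a library was left out, with 1 higher and 31 lower without Epor-eGFP+ library 0 and 3 higher and 30 lower without Epor-eGFP- library 0. In the fits that left out a library, 18.8% to 24.7% of all tested genes were lower and 14.7% to 22.2% higher. A minimum of 5 FPKM and quantile normalization each left 4 higher and 42 lower. The minimum left 78 members to test, and the called members Hdac9, Kdm8, Setd6, Kat6b and Kdm1b were no longer among them. Of the members still tested, 1 lost its call, Chd6 (adjusted p = 0.0629), whereas quantile normalization lost 6 calls. Over all tested genes these settings called 29.4% and 26.6% lower, and 22.3% and 22.4% higher. With libraries rescaled to the mean total FPKM, 28 were lower and 7 higher (median −0.1472), against 19.0% and 27.9% of all tested genes. Of the calls over all genes 59.5% were then higher, against 46.3% as deposited. At the mean upper quartile 35 were lower (median −0.1819), against 21.9% of all tested genes. A pseudocount of 5 gave a median of −0.1607. A replicate block called 10 higher and 47 lower, kept all 51 calls, added Arid2, Chd1, Chd1l, Hdac2, Setd3 and Smarcc1, and changed no other member's call. Over all tested genes the block called 28.0% higher and 30.4% lower, against 22.7% and 26.3% without it.

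Signs turned only in members without a call, near 0. Hdac1, Smarcc2, Kdm5c and Kdm1a became 0.0524, 0.0528, 0.000823 and 0.0170 with quantile normalization, 0.0948, 0.0891, 0.0806 and 0.0632 at the mean total, and 0.0566, 0.0511, 0.0446 and 0.0261 at the mean upper quartile. Without both libraries numbered 2, Chd4 was −0.00763, Smarcd1 −0.0122, Hdac1 0.0378, Kdm5c 0.0163 and Kdm1a 0.00509. With a library left out, the values ran from −0.0757 to 0.0640 for Hdac1, −0.0613 to 0.0182 for Smarcc2, −0.0388 to 0.0172 for Kdm5c, −0.0880 to 0.0373 for Kdm1a, −0.0814 to 0.0653 for Brd8, −0.0281 to 0.0286 for Chd4 and −0.0209 to 0.0287 for Smarcd1. For rescaling the cause lies in its construction, a common shift of every gene in a library, and for the others the cause was not tested.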
